A study of Homo sapiens with 4 samples.

Results

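FT190 cells carrying a control vector are described here from 2 RNA sequencing libraries, named control 1 and control 2, out of 4 libraries in the series. These 2 were chosen by their sample titles, which name the line, the control treatment and the replicate. Both groups of the series share the line, its wild-type genotype label and its growth in RPMI medium with serum, glutamine and antibiotics. The control cells carry the PLKO vector, and the other group, an shRNA against SMARCA4 in the same line, was not compared here. FT190 is an established line known to come from the secretory epithelium of the human fallopian tube, and the labels call its cell type ovarian epithelial. It was immortalised before use, so its growth and telomerase genes need not stand where they would in tissue. The sources used here do not say whether the 2 libraries came from separate cultures, so the spread between them may be technical. With n = 2, both values are given for each gene in place of a mean with its SD.

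The lining of the fallopian tube holds secretory cells, which make tubal fluid and carry the transcription factor PAX8, and ciliated cells, whose programme is run by FOXJ1. Both descend from the Müllerian duct, as do uterus and cervix. Epithelial cells in culture often take on vimentin, fibronectin and other genes of motile, matrix-making cells while they keep their keratins. The secretory cell is widely held to be a source of high-grade serous carcinoma, which is why immortalised lines of it are in use.

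Levels are given as TPM, a share of transcripts: each gene's count divided by its transcript length and scaled so that a library sums to 1e+06. The libraries held 33641343 and 32618516 counts, and 29151 and 29231 of 63241 genes had at least 1 count. At this depth a transcript of 2 kb collects about 27 counts per TPM. A level of 1 TPM or more in both libraries was reached by 16900 genes, 26.7% of all genes in the table, and by 12397 of 20073 protein-coding genes, which is 61.8%. The median gene of that class stood at 5.81 TPM in control 1 and 6.02 TPM in control 2. Grouped by mean level, 102 genes at 1000 TPM or more held 27.1% of all TPM, and 1711 genes between 100 and 1000 TPM held a further 41.2%. Protein-coding genes made up 90 of the 102 and 1583 of the 1711.

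Among the 30 genes with the highest mean level, 15 were mitochondrially encoded. The others were 11 protein-coding genes, 2 ribosomal protein genes and 2 long noncoding genes. Mitochondrially encoded genes as a whole held 10.1% of the TPM of control 1 and 12.2% of that of control 2. First in rank was MT-ATP8, a subunit of ATP synthase, at 17818 TPM in control 1 and 22105 TPM in control 2. Its reading frame overlaps that of MT-ATP6, and the authors' counting cannot divide reads between them, so its level is uncertain. MT-ND4L overlaps MT-ND4 in the same way. The same holds for the 2 noncoding genes of the 30. ENSG00000269968, at 3901 and 3818 TPM, overlaps GAPDH, and ENSG00000234961, at 2533 and 2583 TPM, overlaps VIM, and reads of both strands were counted.

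The leading nuclear gene was ACTB, the cytoplasmic beta-actin, at 8642 TPM in control 1 and 7632 TPM in control 2. GAPDH, an enzyme of glycolysis, followed at 7346 and 7299 TPM. Their order was the same in both libraries, although the gap in control 2 was small. B2M, the light chain of MHC class I, had 4702 and 5080 TPM, and ACTG1, the cytoplasmic gamma-actin, had 4940 and 4188 TPM. These 2 changed places between the libraries, so neither can be placed above the other. The ribosomal protein gene RPS18 (4281 and 4234 TPM) lay below B2M in both libraries, but above ACTG1 in control 2. Then came the chaperone HSP90AA1 (3703 and 3330 TPM), the actin-binding TMSB10 (3537 and 3451 TPM) and the glycolytic ENO1 (3493 and 3369 TPM). VIM, the intermediate filament protein vimentin, stood at 3362 and 3385 TPM, and FN1, the matrix protein fibronectin, was the last protein-coding gene of the 30, at 2751 and 2617 TPM. The 82 ribosomal protein genes held 6.83% and 6.71% of TPM, with a median of 657 and 656 TPM.

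**Figure D1:**
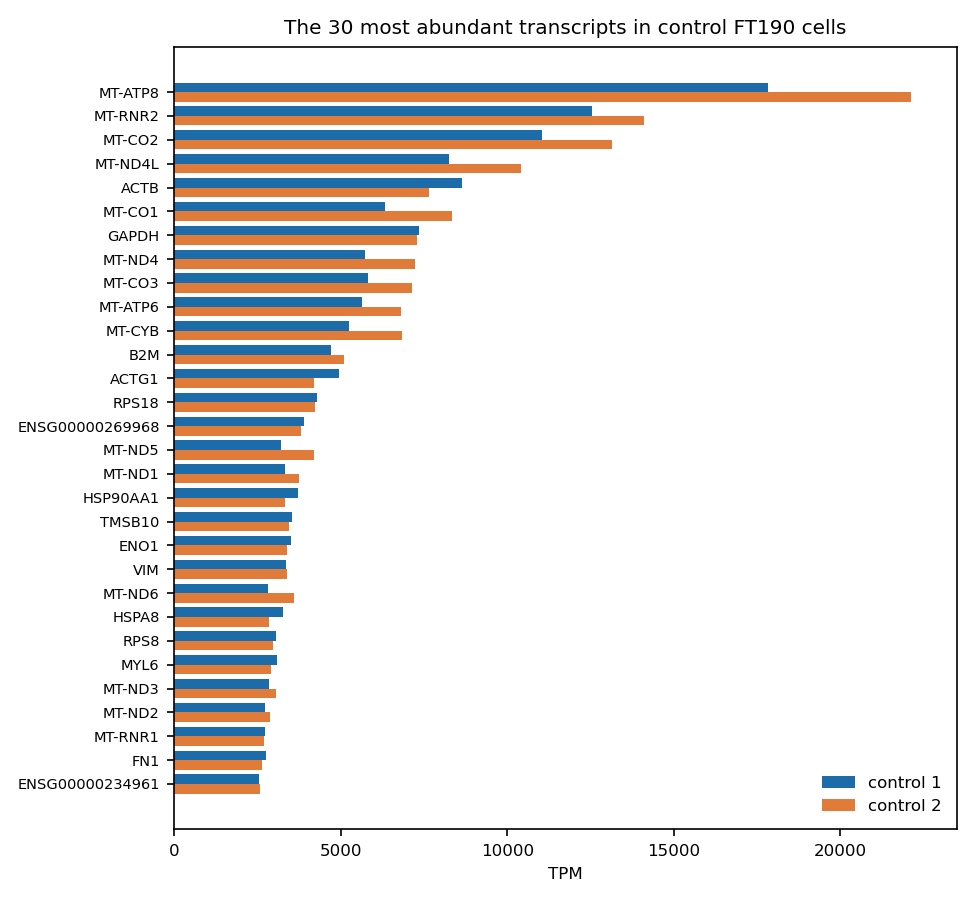
Bars give the TPM (horizontal axis, linear) of the 30 genes with the highest mean level, blue for control 1 and orange for control 2. MT-ATP8 is the longest bar of each library, at 17818 and 22105 TPM, and ACTB is the first nuclear gene, at 8642 and 7632 TPM.

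The upstream sequences of some of these genes are shown because a core promoter motif was frequent among the promoters searched in the most abundant class. This was noticed after the values were seen. RefSeq promoters on GRCh38.p14 were found by symbol for 15397 of 20044 protein-coding symbols, and 12748 of them had a start within 50 bases of the 5′ end of the transcript counted by the authors. The letters TATAA, searched on the gene's strand between 40 and 16 bases before the start, were present in 15 of 53 promoters of genes at 1000 TPM or more, which is 28.3%. The share was 4.64% for genes between 100 and 1000 TPM, 1.83% between 10 and 100 TPM, 3.56% between 1 and 10 TPM and 11.9% below 1 TPM, against 5.87% of all 12748 promoters. So the motif was most frequent at both ends of the range of levels. Of 4 other motifs, searched on both strands of the 250 bases before the start, the shares at 1000 TPM or more and in all promoters were 67.9% and 61.0% for GGGCGG, 35.8% and 35.5% for CCAAT, 30.2% and 21.1% for CCGGAA, and 11.3% and 2.65% for TGACGTCA, the cAMP response element. The class holds 90 protein-coding genes, and only the 53 with a matched start were searched. These shares thus rest on few promoters and on part of the class. The number of CG dinucleotides in the 250 bases before the start differed mainly for silent genes. Its median was 6 below 1 TPM, 21 to 23 in the classes from 1 to 1000 TPM, and 18 at 1000 TPM or more. Letters are a description of the window and say nothing of factor binding. In the following sequences, the 100 bases just before the start, 5′ to 3′ on the gene's strand, TATAA is in capitals; it began 30, 28 and 28 bases before the start of TMSB10, B2M and FN1. ENO1, the most abundant gene without it among the 53 searched, is shown beside them. The windows are chr2:84905556-84905655 (plus strand) for TMSB10, chr15:44711417-44711516 (plus) for B2M, chr2:215436069-215436168 (minus) for FN1 and chr1:8878687-8878786 (minus) for ENO1.
TMSB10: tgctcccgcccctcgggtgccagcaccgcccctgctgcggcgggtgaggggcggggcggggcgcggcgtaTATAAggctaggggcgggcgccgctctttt
B2M: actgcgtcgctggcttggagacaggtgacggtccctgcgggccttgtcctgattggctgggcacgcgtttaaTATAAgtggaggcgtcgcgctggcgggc
FN1: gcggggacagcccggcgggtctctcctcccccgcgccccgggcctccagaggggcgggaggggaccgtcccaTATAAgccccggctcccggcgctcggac
ENO1: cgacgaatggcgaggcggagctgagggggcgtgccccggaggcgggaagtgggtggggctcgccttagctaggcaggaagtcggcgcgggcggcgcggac

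The cells were described first by 7 markers set for them: KRT7, KRT8, KRT18, FN1, COL1A1, PAX8 and WT1. These were chosen with earlier results of these data known, so their passing is no independent evidence of identity. All 7 were above 1 TPM in both libraries, where 61.8% of protein-coding genes reached that level. The 3 keratins of simple epithelia and the 2 matrix genes stood between 625 and 2751 TPM, and the 2 transcription factors between 10.5 and 35.1 TPM. KRT7, a type II keratin of ducts and of Müllerian epithelium (chr12:52233243-52248921 on hg38), stood at 950 TPM in control 1 and 844 TPM in control 2. KRT8, at 888 and 857 TPM, was below KRT7 in the first library and above it in the second, so the 2 cannot be ranked. KRT18, the partner of KRT8 in its filaments, was lower than both in each library, at 643 and 625 TPM. The transcripts counted for KRT8 (chr12:52897187-52949842) and KRT18 (chr12:52949118-52952906) overlap on opposite strands, so some reads may have been counted for both. PAX8, which marks the secretory lineage (chr2:113215997-113278921), had 33.7 and 35.1 TPM, rank 5000 among all genes. Its locus overlaps PAX8-AS1 on the opposite strand, so some reads may have been counted for both. WT1, a zinc-finger factor of tubal epithelium and mesothelium (chr11:32387775-32435541), had 11.3 and 10.5 TPM, rank 9779.

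**Figure D2:**
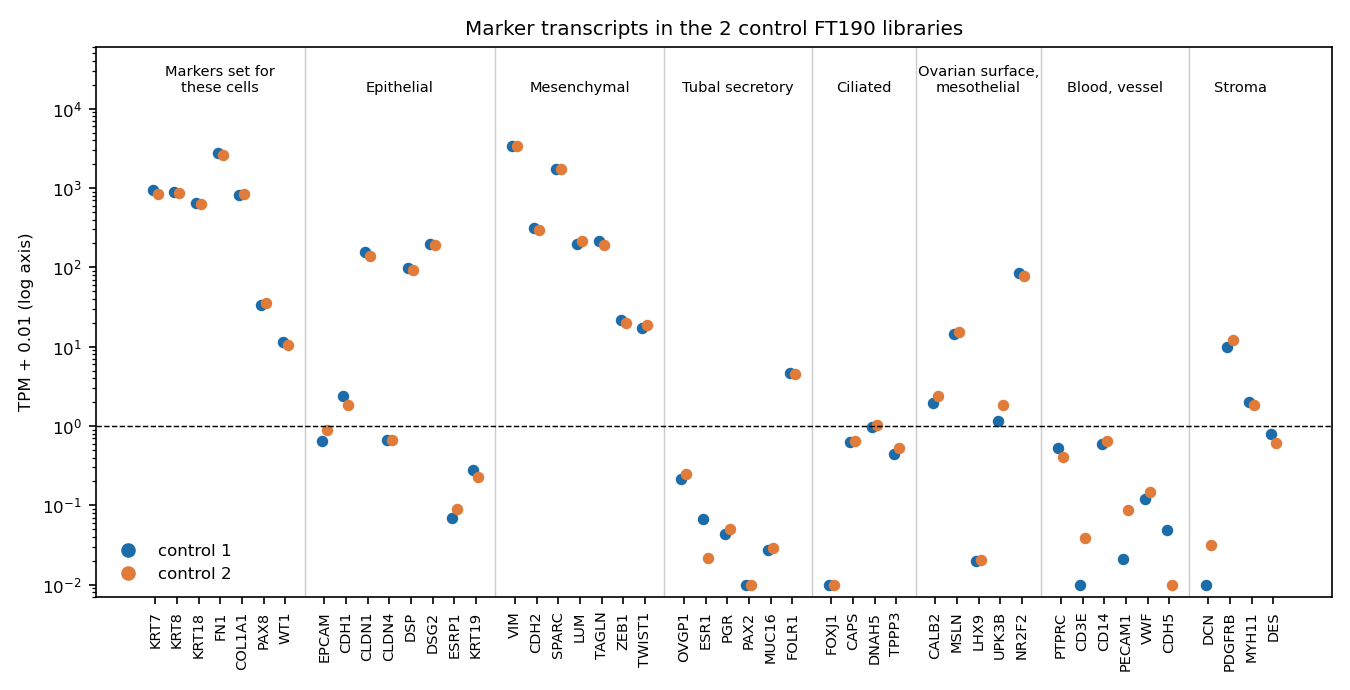
Points give TPM + 0.01 (vertical axis, log scale) of marker genes in control 1 (blue) and control 2 (orange), grouped by the cell type they mark, with a dashed line at 1 TPM. Keratins 7, 8 and 18 and the mesenchymal genes lie above 100 TPM with the exceptions of ZEB1 and TWIST1, while EPCAM, CLDN4, ESRP1, KRT19 and the blood and vessel genes lie below 1 TPM.

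Listed epithelial genes ranged from abundant members to members that were close to absent. Of 36 listed epithelial genes, 21 were at 1 TPM or more in both libraries, a share of 58.3% against 61.8% of protein-coding genes. Of the list 5 were at 100 TPM or more and 3 had no count. No count in either library was the case for 3556 of 20073 protein-coding genes. The list median was 2.63 TPM against 0 over all genes and 5.81 and 6.02 over protein-coding genes. The 5 highest members had different roles. The desmosomal cadherin DSG2 had 198 and 194 TPM, the tight junction claudin CLDN1 had 154 and 140 TPM, and SPINT2, an inhibitor of serine proteases, had 148 and 153 TPM. LAMB3, a laminin chain of epithelial basement membranes, had 129 and 127 TPM, and ITGA6, an integrin that binds laminin, had 106 TPM in both. CDH1, the E-cadherin of adherens junctions, was low, at 2.38 and 1.84 TPM (154 and 117 counts). EPCAM, a surface protein of most simple epithelia, was lower still, at 0.628 and 0.882 TPM (13 and 18 counts). So of the 6 markers that define epithelium in the list, CDH1, KRT7, KRT8 and KRT18 passed 1 TPM, whereas EPCAM and KRT19 (5 and 4 counts) did not. RAB25 and OVOL1 had no count in either library, where 3 counts would have been 0.203 and 0.206 TPM for RAB25. Among 21 keratins, 7 passed 1 TPM, or 33.3%, and KRT80 was the next after KRT18, at 118 and 109 TPM. KRT5 and KRT20, of basal and of intestinal epithelium, had no count.

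Genes of mesenchymal cells were more evenly present. In that list 23 of 28 passed 1 TPM, or 82.1% against 61.8% of protein-coding genes. Of them 11 stood at 100 TPM or more, and the list median was 56.8 TPM. VIM and FN1, given above, led it with SPARC, a collagen-binding matrix protein, at 1735 and 1733 TPM. The receptor kinase AXL had 328 and 294 TPM. CDH2, the N-cadherin (chr18:27950966-28177130), had 313 and 295 TPM and so exceeded CDH1 in both libraries by far more than their spread. All 5 defining markers of this list, VIM, CDH2, FN1, COL1A1 and SPARC, were therefore on. Of 15 transcription factors known for epithelial-mesenchymal transition, 11 passed 1 TPM, or 73.3%. The AP-1 member FOSL1 was the highest, at 111 and 93.3 TPM. ZEB1 (21.6 and 19.95 TPM), SNAI2 (17.4 and 15.1 TPM) and TWIST1 (17.1 and 18.9 TPM) lay close together, and SNAI2 and TWIST1 changed order between the libraries. GSC had no count.

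Most matrix genes were on. Of 36 genes for basement membrane and matrix glycoproteins, 32 passed 1 TPM, or 88.9% against 61.8% of protein-coding genes. Of them 14 passed 100 TPM, and the list median was 61.5 TPM. After FN1 and SPARC came TGFBI, a matrix protein induced by TGF-beta (1174 and 1361 TPM), THBS1, which encodes thrombospondin 1 (1177 and 822 TPM), and CCN1, a matricellular protein (982 and 732 TPM). Integrins, the receptors for these ligands, had 14 of 21 members on, or 66.7%, which is near the protein-coding share. The beta-1 chain ITGB1, which pairs with most alpha chains, had 725 and 742 TPM. Its partners for RGD ligands were ITGAV (233.4 and 242.6 TPM) and ITGA5 (233.1 and 227.0 TPM). Their order was the same in both libraries, although they were almost level in control 1. ITGA3, which binds laminin, followed at 176 and 173 TPM.

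Collagens showed sharp differences between chains that are built into the same molecule. COL1A1, the alpha-1 chain of type I collagen (chr17:50184101-50201631), stood at 820.5 and 834.4 TPM from 64558 and 64669 counts. COL1A2, which supplies the alpha-2 chain of the usual type I trimer (chr7:94394895-94431227), had 10 and 9 counts, or 0.149 and 0.136 TPM. COL3A1, the fibrillar collagen that accompanies type I in most connective tissue, had 8 and 4 counts. The COL1A1 locus overlaps ENSG00000249406, and reads of the 2 cannot be divided. COL1A1 was thus the 1 gene of these 3 above 1 TPM in either library. Over the whole list, 17 of 23 collagen genes passed 1 TPM, or 73.9% against 61.8% of protein-coding genes. COL5A1 (249 and 269 TPM) and COL8A1 (214 and 183 TPM) were among the 5 highest.

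Basement membrane collagen IV is encoded by 6 genes that lie in 3 head-to-head pairs. COL4A1 had 289 and 294 TPM and COL4A2 had 230 and 241 TPM, a ratio of 1.26 in control 1 and 1.22 in control 2. COL4A3 (0.140 and 0.170 TPM) and COL4A4 (0.904 and 0.652 TPM) were below 1 TPM in both libraries. COL4A5 had 40.2 and 44.6 TPM and COL4A6 had 6.501 and 6.893 TPM, a ratio of 6.18 and 6.46. At the 1 TPM cut the members of a pair were thus on or off together, while their ratio differed from pair to pair. At a threshold of 0.5 TPM, COL4A4 would be on and COL4A3 off. In RefSeq the starts are 126, 418 and 379 bases apart in the 3 pairs, at the nearest starts. The 126 bases between COL4A1 and COL4A2 (chr13:110307158-110307283, GRCh38.p14, plus strand, COL4A2 running to the right) are shown because both genes start at their ends. Capitals mark the letters CCAAT and GGGCGG, searched on both strands. In the 250 bases before the start, CCAAT was present in 35.5% and GGGCGG in 61.0% of all 12748 promoters.
COL4A1-COL4A2: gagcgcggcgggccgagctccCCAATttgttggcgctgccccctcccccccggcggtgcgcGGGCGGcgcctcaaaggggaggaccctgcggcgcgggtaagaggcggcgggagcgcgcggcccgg

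Lineage genes of the tube were mostly low apart from PAX8, WT1 and genes shared with other tissues. Of 25 listed tubal and Müllerian genes, 11 passed 1 TPM, a share of 44% against 61.8% of protein-coding genes. Of the list 4 had no count, a share similar to the 3556 of 20073 protein-coding genes, and the median was 0.311 TPM. The 5 highest were KRT7, the microtubule regulator STMN1 (842 and 854 TPM), the hyaluronan receptor CD44 (215 and 202 TPM), ITGA6 and PAX8. OVGP1, the oviductal glycoprotein secreted in the tube, had 6 and 7 counts (0.204 and 0.241 TPM). ESR1, the oestrogen receptor alpha, had 5 and 1 counts, and PGR, the progesterone receptor, had 6 and 7 counts. PAX2, a Müllerian paralog of PAX8, had no count, where 3 counts would have been 0.183 TPM in control 1 and 0.186 TPM in control 2. ESR1, PGR and OVGP1 thus had 7 counts or fewer in each library, against 486 and 444 counts of WT1. In the oestrogen, progesterone, androgen and glucocorticoid receptor family, NR3C1, the glucocorticoid receptor, held 94.8% and 95.3% of the summed TPM, at 53.4 and 55.7 TPM. Among 9 PAX genes PAX8 held 93.1% and 92.8%, followed by PAX6 at 1.27 and 1.44 TPM and PAX9 at 1.23 and 1.24 TPM.

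Markers of the ovarian surface and mesothelium, which the word ovarian in the label brings into question, were present in part. Of 16 genes 8 passed 1 TPM, a share of 50% against 61.8% of protein-coding genes, and none reached 100 TPM, with a median of 1.09 TPM. At a threshold of 5 TPM, 4 passed. NR2F2, a nuclear receptor of mesenchyme and mesothelium, led at 83.7 and 78.2 TPM, and LRRN4, a mesothelial membrane protein, had 19.4 and 15.5 TPM. Of the 4 defining markers, MSLN, the mesothelin gene, had 14.6 and 15.4 TPM, CALB2, the calretinin gene, had 1.96 and 2.41 TPM, UPK3B had 1.15 and 1.81 TPM, and LHX9 had 1 count in each library. MSLN and WT1 are also known from tubal tumours. The defining markers PAX8 and WT1 of the tubal list, and MSLN, CALB2 and UPK3B of this list, were thus above 1 TPM in both libraries. OVGP1 and ESR1 of the tubal list and LHX9 of this list were not. WT1 marks mesothelium as well as tubal epithelium, so its level does not tell them apart.

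None of the defining markers of ciliated cells passed 1 TPM in both libraries, while some other genes of the list were on. FOXJ1, the master regulator of motile cilia, had no count in either library, where 3 counts would have been 0.0858 and 0.0871 TPM. The other defining markers CAPS (15 counts in each), DNAH5 (0.959 and 1.03 TPM) and TPPP3 (6 and 7 counts) did not pass 1 TPM in both. Of the 19 listed genes that could be measured, 6 passed, led by TUBB4B at 502 and 458 TPM, a beta-tubulin that dividing cells also use. The next, CFAP126, had 9.27 and 7.94 TPM. The remaining 4 were RFX2 (5.25 and 5.31 TPM), CCNO (4.42 and 4.75 TPM), TP73 (2.90 and 3.27 TPM) and MCIDAS (1.70 and 1.91 TPM), all known as regulators of multiciliated cell formation. The share of the list that passed, 31.6%, compares with 26.7% of all genes and 61.8% of protein-coding genes. At a threshold of 5 TPM, 3 passed.

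HOX genes record position along the body axis, and in the Müllerian duct HOXA9 is known for the tube, HOXA10 for the uterus and HOXA11 for the lower uterus and cervix. In the control cells 21 of 39 HOX genes passed 1 TPM, or 53.8% against 61.8% of protein-coding genes. They were 8 of 11 in the HOXA cluster, 7 of 10 in HOXB, 6 of 9 in HOXC and 0 of 9 in HOXD. Summed over a cluster, HOXA had 107.9 and 124.1 TPM, HOXB 105.4 and 106.5 TPM, HOXC 31.5 and 30.3 TPM and HOXD 0.624 and 0.763 TPM. HOXD as a whole was therefore below 1 TPM in both libraries, with HOXD8 its highest member at 15 and 17 counts. The highest single gene was HOXB7, at 45.8 and 46.5 TPM (843 counts in each), and HOXA5 led its cluster at 24.9 and 31.0 TPM. HOXA9 had 11 and 15 counts (0.394 and 0.546 TPM), HOXA10 had 11.4 and 13.5 TPM, and HOXA11 had 29 and 15 counts. So HOXA10 was the 1 member of these 3 above 1 TPM. In the A cluster the counted HOXA3 transcript overlaps HOXA4, HOXA5 and HOXA6, so the division of reads among them is uncertain. HOXA10 overlaps HOXA10-AS on the opposite strand, so its level may include reads of that gene.

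**Figure D3:**
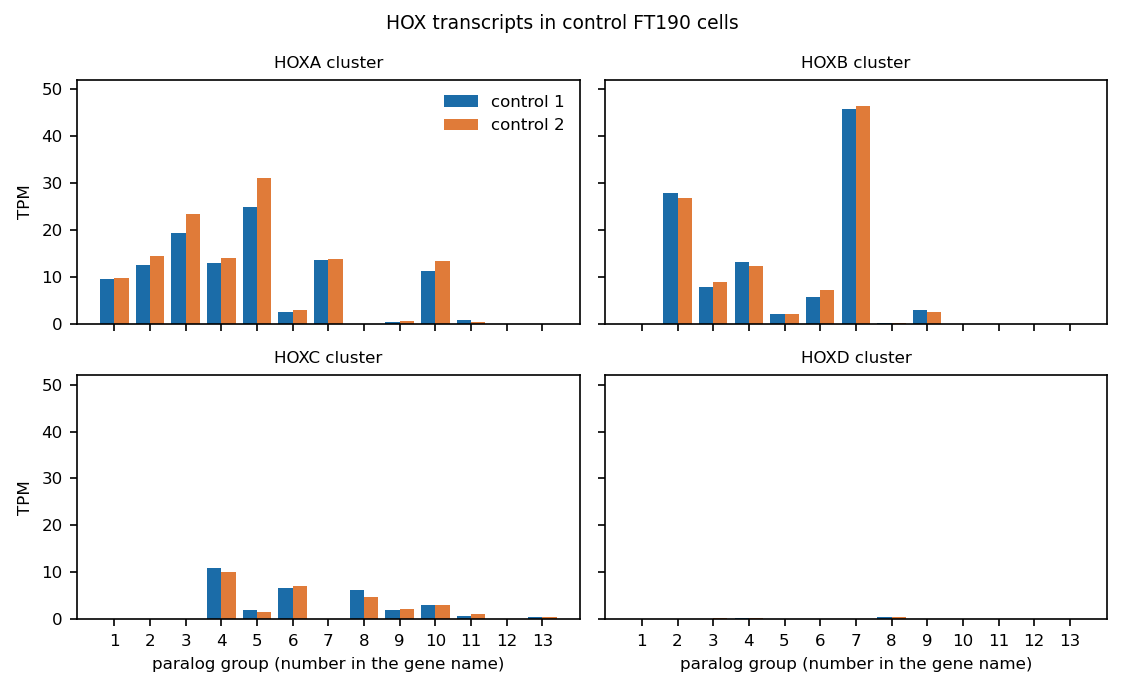
Bars give TPM (vertical axis, linear, the same scale in each panel) of the HOX genes of each cluster by paralog group (horizontal axis), blue for control 1 and orange for control 2. HOXB7 is the tallest at 45.8 and 46.5 TPM, and the HOXD panel shows almost no bar because its 9 genes sum to 0.624 and 0.763 TPM.

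Markers of other cell kinds were mostly near 0. Of 17 immune genes, 2 passed 1 TPM, CD68 and CSF1R, or 11.8% against 61.8% of protein-coding genes. In this list 6 had no count, beside 3556 of 20073 protein-coding genes. PTPRC, the leukocyte antigen CD45, had 33 and 25 counts (0.519 and 0.399 TPM), CD14 had 13 and 14 counts, CD3E had 0 and 1, and HBB had 1 and 0. The list sum of 34.3 and 38.0 TPM was mostly CD68, a lysosomal protein not confined to macrophages, at 31.1 and 34.8 TPM, whose locus overlaps ENSG00000264772. CSF1R, a receptor of macrophages, had 1.27 and 1.46 TPM. Of 12 endothelial genes 1 passed (8.33%), ROBO4, at 1.60 and 2.08 TPM. The defining PECAM1 (1 and 7 counts), VWF (13 and 16 counts) and CDH5 (1 and 0 counts) did not. Of 15 neural, liver and muscle genes 3 passed (20%), with MBP the highest at 13.3 and 13.4 TPM, and MYOD1 had no count.

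The fibroblast and smooth muscle list held both high and near-absent members, as the collagens did. Of 15 genes 8 passed 1 TPM, a share of 53.3% against 61.8% of protein-coding genes. LUM, the leucine-rich proteoglycan lumican, had 199 and 215 TPM, yet DCN, its relative decorin that abounds in fibroblasts, had 0 and 2 counts. TAGLN, an actin-binding protein of smooth muscle, had 216 and 189 TPM and ACTA2, smooth muscle actin, had 34.3 and 28.6 TPM. PDGFRB, the receptor of pericytes and fibroblasts, stood at 9.811 and 12.003 TPM, MYH11, smooth muscle myosin, at 1.98 and 1.85 TPM, and DES, desmin, at 17 and 13 counts. PDGFRA had 44 and 58 counts. High LUM and COL1A1 thus stood beside near-absent DCN, COL1A2 and COL3A1 in both libraries. In bulk RNA a gene at a low level in all cells and a gene on in few cells cannot be told apart.

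Listed cell cycle genes were all on, at 1 TPM or more in 24 of 24 against 61.8% of protein-coding genes. The 24 listed proliferation genes each passed 10 TPM, 21 of them 100 TPM, with a median of 189.6 TPM. Of 20073 protein-coding genes, 1583 had a mean between 100 and 1000 TPM and 90 a mean of 1000 TPM or more. CCNB1, the mitotic cyclin, had 477 and 453 TPM, the DNA synthesis enzyme TYMS had 380 and 373 TPM, and the replication clamp PCNA had 369 and 382 TPM. UBE2C, which serves the anaphase-promoting complex, had 363 and 347 TPM, and TOP2A, the topoisomerase of dividing cells, had 313 and 315 TPM. CDKN2A, the locus of the cell cycle inhibitor p16, stood at 169 and 161 TPM. RB1 (90.3 and 89.1 TPM), CDKN1A (74.2 and 84.1 TPM), which encodes p21, and BAX (77.1 and 74.0 TPM), a cell death gene, were lower. High CDKN2A therefore stood beside high cyclin genes. TERT, the catalytic subunit of telomerase, which most somatic cells hardly transcribe, had 20.8 TPM in both libraries (1126 and 1113 counts). Counts per gene cannot tell an introduced TERT coding sequence from the chromosomal gene at chr5:1253167-1295068. TERC, the telomerase RNA, had 6 and 1 counts.

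Paralog choice was read in 43 gene families. The same member led in both libraries in 43 of 43, the order of all members at 1 TPM or more was the same in 41, and in 11 the leader held over 90% of the family's TPM in each library. Only 4 families had a single member on. One of the families with a changed order was the classical cadherins, where CDH3 and CDH4, both under 2 TPM, traded places.

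**Figure D4:**
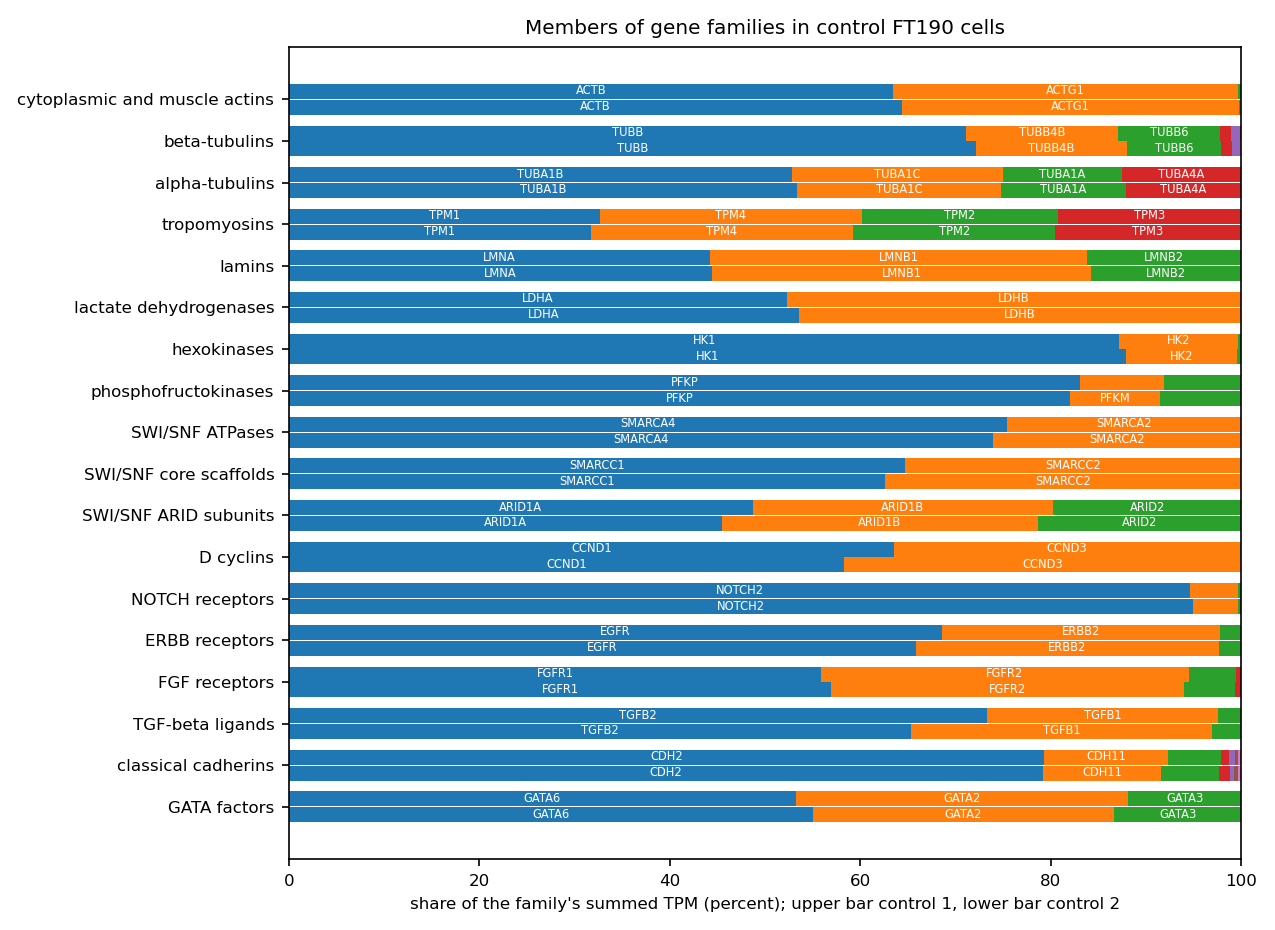
Each family has an upper bar for control 1 and a lower bar for control 2, divided by each member's share of the family's summed TPM (horizontal axis, percent), with members ordered by mean level and shares above 9% named. The leading member is the same in both bars of each family, for example NOTCH2 at 94.7% and 95.0% and ACTB at 63.5% and 64.4%.

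In the skeleton, ACTB held 63.5% and 64.4% of actin TPM, 1.75 and 1.82 times ACTG1, and the muscle actins were low. The 2 cytoplasmic actins are near copies, and their first 90 coding bases (GENCODE 29 transcripts, both on the minus strand, ACTB on chromosome 7 and ACTG1 on chromosome 17) show how reads are told apart. Capitals mark the 17 positions at which the 2 sequences differ.
ACTB: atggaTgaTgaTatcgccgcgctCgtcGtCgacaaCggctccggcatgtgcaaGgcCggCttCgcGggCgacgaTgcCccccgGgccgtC
ACTG1: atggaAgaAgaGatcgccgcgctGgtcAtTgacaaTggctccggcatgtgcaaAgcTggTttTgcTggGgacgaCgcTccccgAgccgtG
Over the whole coding sequence 1027 of 1125 bases were identical, or 91.3%, but only 10 of 1872 windows of 50 bases in the ACTB transcript also occurred in ACTG1. Alpha-tubulins are harder to separate. TUBA1B led with 944 and 883 TPM, ahead of TUBA1C with 395 and 355 TPM and TUBA1A with 223 and 218 TPM. However, 37.1% of the 50-base windows of the TUBA1B transcript also occurred in TUBA1C, so this order is uncertain. Among beta-tubulins TUBB led with 2236 and 2091 TPM, 4.45 and 4.57 times TUBB4B, with no shared window. Of the non-muscle myosin heavy chains, MYH9 had 940 and 824 TPM, MYH10 had 55.6 and 57.1 TPM, and MYH14 had no count. Tropomyosins had the lowest leading share of the 43 families, with TPM1 at 32.7% and 31.7% of the sum. LMNA, of the nuclear lamina, exceeded LMNB1 by 1.12 times in both libraries.

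In glycolysis the widely used isoforms led. PKM, the pyruvate kinase of most tissues, had 2099 and 2108 TPM, against 34 and 46 counts of the liver form PKLR. ALDOA had 1156 and 1181 TPM. HK1 exceeded HK2, the inducible hexokinase, at 131 against 18.6 TPM in control 1 and 131 against 17.3 TPM in control 2. The platelet-type phosphofructokinase PFKP held 83.1% and 82.0% of its family. The glucose transporter SLC2A1 had 133 and 138 TPM. LDHA and LDHB, the subunits of lactate dehydrogenase, were close, at 1807 and 1645 TPM in control 1 and 1854 and 1607 TPM in control 2. EEF1A2, an elongation factor known from neurons and muscle, was on at 132 and 134 TPM beside EEF1A1 at 2035 and 2070 TPM. ENO3, the muscle enolase, was listed at 505 and 478 TPM, but its locus overlaps PFN1, an abundant gene, so that level is uncertain.

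SWI/SNF complexes move nucleosomes and are built from alternative subunits around 1 of 2 ATPases. SMARCA4 (chr19:10961030-11062273), which encodes BRG1, had 75.2 TPM in control 1 and 71.4 TPM in control 2. SMARCA2 (chr9:2015347-2193620), which encodes the alternative ATPase BRM, had 24.5 and 25.2 TPM, so SMARCA4 made up 75.4% and 73.9% of the ATPase transcripts. Their coding sequences are 74.9% identical and share no 50-base window, so their reads are distinguishable. Of the scaffolds, SMARCC1 (112 TPM in both) exceeded SMARCC2 (61.0 and 67.1 TPM). SMARCD1 (56.8 and 60.3 TPM) and SMARCD2 (54.0 and 54.7 TPM) were nearly level, and SMARCD3 was lower at 17.2 and 20.05 TPM. ARID1A, ARID1B and ARID2, which define the subtypes of the complex, had 41.3, 26.8 and 16.7 TPM in control 1 and 37.2, 27.1 and 17.5 TPM in control 2. ACTL6A had 201 and 202 TPM, and its neuronal counterpart ACTL6B had no count. The control cells thus held both ATPases and each of these subunits but ACTL6B.

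The other regulators ranged from families with a dominant member to families with close levels. EZH2, the methyltransferase of Polycomb in dividing cells, had 66.7 and 66.9 TPM against 9.36 and 10.6 TPM of EZH1. DNMT1, which maintains DNA methylation, held 90.1% and 89.5% of its family. CCND1 (102 and 77.0 TPM) and CCND3 (58.7 and 54.9 TPM) were the D cyclins in use, and CCND2 had 11 and 3 counts. MYC had 65.3 and 61.1 TPM, and MYCN had no count. Among receptors, NOTCH2 stood at 119 and 114 TPM with NOTCH1 at 6.29 and 5.55 TPM, and EGFR at 43.3 and 39.4 TPM with ERBB2 at 18.4 and 19.1 TPM. FGFR1 (24.7 and 24.2 TPM) exceeded FGFR2 (17.05 and 15.77 TPM). TGFB2, at 126 and 104 TPM, exceeded TGFB1, at 41.7 and 50.2 TPM, by 3.02 times in control 1 and 2.07 times in control 2. Of the GATA factors, GATA6 (10.8 and 11.0 TPM), GATA2 (7.11 and 6.32 TPM) and GATA3 (2.40 and 2.66 TPM) were on. The YAP1 and WWTR1 coactivators of the Hippo pathway had 67.9 and 71.9 TPM and 49.3 and 53.3 TPM.

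The 2 libraries agreed closely but not within counting error. Over 16900 genes at 1 TPM or more, the correlation of log2 TPM across genes was r = 0.992 and rho = 0.993; genes are not independent replicates, and both libraries share the line. Over 18758 genes with a mean of at least 10 counts, the chi-square of the counts was 6.94 per degree of freedom, where sampling alone gives about 1, and they were counted as 2 samples, not as repeat deposits of 1 library. Reads amplified by PCR are not independent molecules, so this value describes the spread and tests no condition. The common biological coefficient of variation from edgeR was 5.41%. Of 12500 genes with a mean of at least 5 TPM, 172 differed by more than 1.5-fold, or 1.38%. Of these, 104 were under 200 bases long and 125 had a mean under 50 counts. Most of the 12500 genes, 12015, had a mean of at least 50 counts, and 47 of those differed by more than 1.5-fold. The 10 largest differences in each direction, as named by the rule, were all noncoding and had 2 to 62 counts, 19 of them under 200 bases. They included snoRNAs and miRNAs inside host genes, such as SNORD63 within HSPA9 (17 and 6 counts) and MIR6764 within YY1 (3 and 9 counts).

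**Figure D5:**
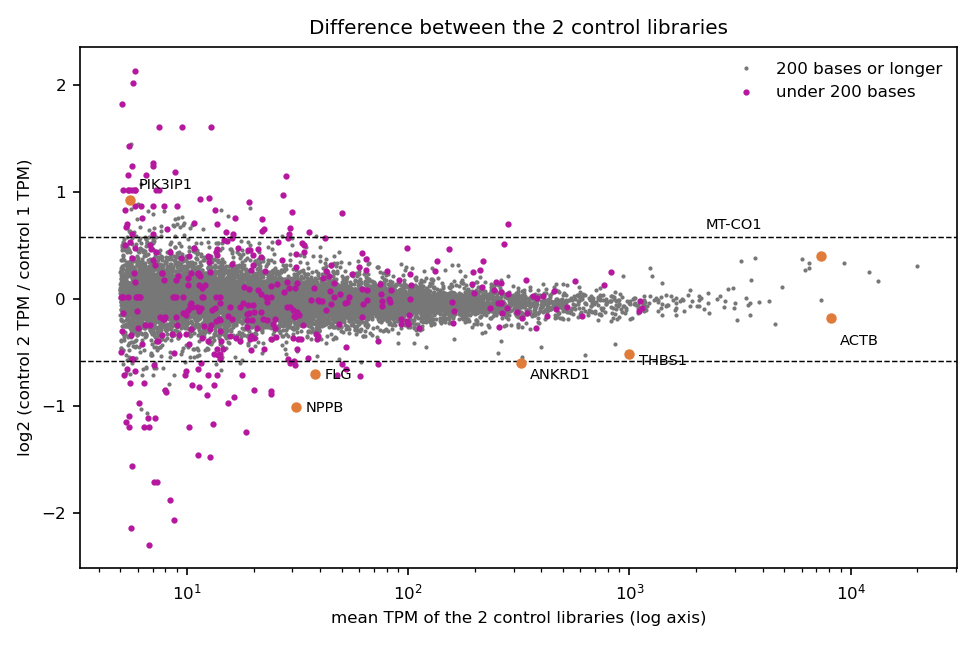
Each point is 1 gene, with its mean TPM (horizontal axis, log scale) and the log2 ratio of control 2 to control 1 (vertical axis); pink marks genes under 200 bases, dashed lines mark 1.5-fold, and orange marks 7 named genes. The widest scatter is among short genes at low levels, NPPB lies at -1.01, and MT-CO1 and ACTB lie on opposite sides of 0.

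Among well-counted coding genes the differences were few. Counting only coding genes whose mean reached 5 TPM and 50 counts, 10348 in all, 20 differed by more than 1.5-fold, which is 0.193%. This filter, and the genes named from it, were picked with the values in view. The largest difference with control 2 the lower was in NPPB, the natriuretic peptide B gene, with 41.7 and 20.7 TPM, a log2 ratio of -1.01. FLG, the filaggrin gene, had 47.11 and 29.05 TPM, and ANKRD1, a YAP and stretch-responsive gene, had 388 and 256 TPM. Below that fold but in the same direction were THBS1, CCN1 and CCN2, a matricellular relative of CCN1 (297 and 227 TPM). THBS1, CCN1 and CCN2 are known as serum-responsive genes. They were named here with their values in view, and whether such genes differed as a set was not tested. In the other direction, PIK3IP1, an inhibitor of PI3 kinase, had 3.80 and 7.22 TPM, and the complement genes CFB (6.76 and 11.4 TPM) and CFI (4.65 and 7.85 TPM) were higher in control 2. CFB shares its locus with ENSG00000244255, which had nearly the same values. All 13 mitochondrially encoded protein genes were higher in control 2, by log2 ratios of 0.09 to 0.40 with a median of 0.31. Over the 12500 genes with a mean of at least 5 TPM the median was -0.015. The mitochondrial rRNA gene MT-RNR2 was also higher in control 2, by 0.17, but MT-RNR1 was not (-0.015). Some of the 13 genes overlap and share reads, so they are not 13 separate observations. What made the libraries differ was not tested, and with 2 libraries of 1 group no test of a condition is possible.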

How the data were processed

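SMARTer mRNA libraries were made from total RNA, per the labels' protocols. Per the file headers, the authors counted reads with HOMER over the exons of GENCODE 45 (build hg38), on both strands, for 1 transcript per gene and without normalization, and deposited these raw counts. Overlapping and antisense genes therefore share reads. Alignment used STAR 2.6.1c, per the submitters' processing notes, which also name DESeq2 1.19.38.

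From the 2 control columns, TPM was computed with the deposited transcript length (pandas 2.3.3). Thresholds were 1 TPM in both libraries, and 1.5-fold between libraries at a mean of at least 5 TPM. A gene without counts is given the level that 3 counts would be; this covers counting error only. Dispersion came from edgeR 4.0.16, and the chi-square and dispersion were tested on simulated counts. Promoters are RefSeq, coding sequences GENCODE 29.

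Members and the 19 lists and 43 families were chosen with earlier results of these data known. Genes named are the 30 most abundant, each list's defining markers and 5 highest members, family members at 1 TPM or more, the 10 largest library differences each way, and members at 0; others were chosen after their values were seen. Some genes that these lists and the rule pick are not reported here.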

Additional observations from a re-analysis of the deposited data

How the results depend on the processing

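The number of genes at 1 TPM or more stayed within 1.5 times of 16900 under the 8 alternatives, from 12247 at a threshold of 5 TPM to 18953 at 0.5 TPM. It was 17646 without control 1 and 17416 without control 2. List members at 1 TPM or more numbered 239, and 200 to 257 under the same alternatives. List by list, 144 of 152 counts stayed within 1.5 times. At 5 TPM the ovarian surface and mesothelial list fell from 8 to 4, the ciliated from 6 to 3, the immune from 2 to 1, the neural, liver and muscle from 3 to 1 and the endothelial from 1 to 0; the endothelial count was 2 at 0.5 TPM, with CPM and without control 1. Genes over 1.5-fold apart numbered 172, with TMM 172, with RLE 170 and with a mean of at least 50 counts 173, but 5398 with no filter beyond a count in both libraries and 20 among protein-coding genes with at least 5 TPM and 50 counts, the last chosen after seeing the data. The leader of a family changed in 3 of 43 families with CPM that ignore length (G1 kinases, TGF-beta receptors and the cytochrome c oxidase tissue forms) and in none under the other alternatives. Over 40 named genes, a protein-coding denominator multiplied levels by 1.13 and a length shortened by 200 bases by 0.831 to 1.45. Leaving out a library is not possible for the difference between the 2. No paired analysis was possible because only 1 group was used. The deposited length and the single transcript per gene limit every TPM, and for genes without counts the transcript kept can be a short one.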

Other observations

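Long noncoding genes held 6.34% of TPM in control 1 and 6.27% in control 2. Of the 30 most abundant ones of at least 200 bases, 30 overlapped another gene, and for 22 the overlapping gene with the most counts lay on the opposite strand. Since both strands were counted, their levels cannot be separated from those of their partners. Among noncoding genes of the fixed list, 16 of 22 passed 1 TPM, or 72.7% against 26.7% of all genes. MALAT1, a nuclear RNA of speckles, had 133 and 160 TPM, NORAD had 111 and 118 TPM, and the small nucleolar RNA host GAS5 had 92.1 and 98.8 TPM. NEAT1, the scaffold of paraspeckles, had 30.6 and 46.1 TPM. H19 had 2 and 1 counts. HOTTIP, at the 5′ end of the HOXA cluster, had no count, and HOTAIRM1, at its other end, had 17.3 and 24.9 TPM.

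Genes under 200 bases numbered 7781 and held 2.58% and 2.61% of TPM.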
